A study of Mus musculus with 16 samples.

Results

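The proteasome genes described here were the 48 genes, of 53090 in each table, whose symbol consists of Psma, Psmb, Psmc, Psmd, Psme, Psmf or Psmg and a number. They were chosen by symbol alone, all 48 had counts in at least 1 library, and 5 of them (Psmb8, Psmb9, Psmb10, Psme1 and Psme2, the immunoproteasome genes) were kept apart from the other 43. RNA from 16 libraries was compared: freshly isolated naïve CD4+ T cells (Tn, not cultured) and cells kept under Treg-polarizing stimulation for 2 days (Treg), from wild type (WT) mice and from mice deficient in AIM2 (Aim2-/-), a cytosolic receptor of double-stranded DNA, with 4 libraries in each of the 4 groups. WT mice were C57BL/6, the Aim2-/- mice carried the same background, and animals were matched for sex and age, with ages not given in the sources used here. Tn cells were CD44low CD62Lhigh splenic cells isolated with magnetic beads, and the Treg groups started from such cells, given anti-CD3 and anti-CD28 antibodies, recombinant human TGF-β and recombinant mouse IL-2. The design text of the series describes 1 culture condition only, so time in culture, stimulation and polarization cannot be told apart in any comparison of Treg with Tn. Where the sources do not say that libraries came from separate mice, p-values measure the spread between these libraries.

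The proteasome degrades proteins that carry ubiquitin chains. Its 20S core is a barrel of α rings (Psma genes) around β rings (Psmb genes), and 3 β subunits cut peptide bonds: Psmb5, Psmb6 and Psmb7. The 19S cap recognises and unfolds substrates with a ring of ATPases (Psmc genes) and a set of non-ATPase subunits (Psmd genes). In immune cells and under interferon-γ, newly built cores take up Psmb8, Psmb9 and Psmb10 in the places of Psmb5, Psmb6 and Psmb7, which changes the peptides offered to MHC class I molecules, and the activator PA28, made of the products of Psme1 and Psme2, can replace the 19S cap.

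The catalytic subunits that exchange places are shown by the promoter windows of 2 such pairs because these genes exchange places in the core and their ratios are compared further on. RefSeq windows of 300 bases (250 before to 50 after a RefSeq start of the gene, GRCm38.p6) were at hand for 40 of the 48 genes, and Psma8, Psmb1, Psmb2, Psmb7, Psmc3, Psmd3, Psmd7 and Psmg2 had none. Psmb5 (chr14:54617946-54618245, minus strand) and its inducible counterpart Psmb8 (chr17:34197945-34198244, plus strand) come first, and Psmb6 (chr11:70525107-70525406, plus strand) and its counterpart Psmb9 (chr17:34187281-34187580, minus strand) follow. Each is printed 5′ to 3′ on the strand of the gene, and capitals mark a match to 1 of 4 motifs searched on both strands.
Psmb5: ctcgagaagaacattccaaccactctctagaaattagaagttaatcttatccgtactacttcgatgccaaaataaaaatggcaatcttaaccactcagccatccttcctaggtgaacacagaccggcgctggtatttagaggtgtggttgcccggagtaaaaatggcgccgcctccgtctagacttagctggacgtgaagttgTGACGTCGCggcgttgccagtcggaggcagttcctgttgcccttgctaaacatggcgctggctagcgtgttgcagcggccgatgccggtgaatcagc
Psmb8: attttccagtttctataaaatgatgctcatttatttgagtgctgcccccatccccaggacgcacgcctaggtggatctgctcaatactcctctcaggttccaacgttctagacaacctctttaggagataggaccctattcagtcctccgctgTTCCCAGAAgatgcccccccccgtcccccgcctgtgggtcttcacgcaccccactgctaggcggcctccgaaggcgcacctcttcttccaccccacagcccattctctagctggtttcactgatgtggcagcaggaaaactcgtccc
Psmb6: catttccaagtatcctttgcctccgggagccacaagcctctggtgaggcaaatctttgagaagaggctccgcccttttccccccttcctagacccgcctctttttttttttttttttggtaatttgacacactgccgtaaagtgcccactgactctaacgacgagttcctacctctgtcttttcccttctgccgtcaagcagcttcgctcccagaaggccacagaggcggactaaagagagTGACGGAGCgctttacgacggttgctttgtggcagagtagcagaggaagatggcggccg
Psmb9: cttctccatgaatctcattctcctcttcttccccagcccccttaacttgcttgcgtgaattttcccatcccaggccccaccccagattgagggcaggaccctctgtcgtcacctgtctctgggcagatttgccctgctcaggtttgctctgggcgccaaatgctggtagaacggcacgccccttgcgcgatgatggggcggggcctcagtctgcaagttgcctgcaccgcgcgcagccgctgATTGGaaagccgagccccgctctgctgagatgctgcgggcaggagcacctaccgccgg
The capitals in Psmb5 and Psmb6 match the core of the antioxidant response element, TGACNNNGC, to which the transcription factors encoded by Nfe2l1 and Nfe2l2 are known to bind. Those in Psmb8 match GAS, TTCNNNGAA, a motif of interferon-γ signalling, and those in Psmb9 are a CCAAT box read on the other strand. In the GENCODE M21 annotation, however, Psmb8 begins at 34197721 and Psmb9, on the minus strand, at 34187764. By these starts both windows lie wholly inside the gene, and their matches lie downstream of the start. The same holds for the windows of Psme1, Psmd9 and Psmb11, whose matches are among those counted next. The antioxidant response core was found in 6 of the 37 windows of the other proteasome genes (16.2%; Psmb5, Psmb6, Psmc6, Psmd9, Psmd12 and Psme4), in 0 of the 6 windows of the immunoproteasome genes and in 12.4% of all 32851 windows. CCAAT was found in 35.1% of the windows of the other proteasome genes, against 37.4% of all windows. GAS was found in 1 of 6 immunoproteasome windows, 2 of 37 other proteasome windows and 8.30% of all windows, and the core of the interferon-stimulated response element in 1 of 6 (Psme1), 4 of 37 and 3.44%. None of these letters says whether a factor binds.

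The libraries held 22516424 to 34533316 counts, so that 3 counts, taken as the floor, correspond to 0.0869 to 0.133 CPM (counts scaled to the size of the library), a limit that covers counting error only. Aim2 itself was at 32.3 to 37.9 CPM in WT Tn and 35.7 to 43.3 CPM in WT Treg, and at 6.61 to 9.26 CPM and 7.17 to 10.8 CPM in the Aim2-/- groups, with no overlap between genotypes. The 7 CD4 T cell markers summed to 3968 to 5050 CPM in Tn and 2068 to 2275 CPM in Treg. Summed markers of naïve T cells were at 4485 to 6191 CPM in Tn and 667 to 1083 CPM in Treg, and those of Treg or activated T cells at 52.2 to 116 CPM and 3057 to 3896 CPM, so both labels matched their markers. With culture, the sum of 7 B cell markers went from 6.42 to 13.9 CPM in Tn to 31.0 to 54.9 CPM in Treg. The rise lay in Cd74 (5.25 to 12.2 CPM in Tn, 29.8 to 54.5 CPM in Treg). Cd79a, the other of the 2 B cell markers that passed the filter, went the other way (0.613 to 1.73 and 0.222 to 0.528 CPM). Sums of 2 CD8 and 3 NK cell markers were lower in Treg (2.26 to 4.02 and 0.704 to 2.54 CPM). The part of all these markers' cells in the culture results was not tested. Fewer cells of a type and less RNA per cell cannot be told apart in these bulk samples.

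After Treg culture, nearly all proteasome genes outside the immunoproteasome took a larger share of the RNA counted in WT cells. RNA per cell was not measured. The share of all counts that fell on the 48 genes was 0.406% ± 0.0269 (SD, n = 4) in WT Tn and 0.892% ± 0.0459 (SD, n = 4) in WT Treg. The 43 other genes accounted for 0.309% ± 0.0144 and 0.778% ± 0.0266 (SD, n = 4 each). The 5 immunoproteasome genes took 0.0977% ± 0.0149 in Tn and 0.114% ± 0.0196 in Treg (SD, n = 4 each), and their libraries overlapped. Of the 46 proteasome genes that passed the filter on low counts, 41 rose and 1 fell with culture in WT (edgeR's quasi-likelihood test, Benjamini-Hochberg adjusted p under 0.05), while 37.7% of the 13675 genes tested rose and 39.2% fell. Among the 41 other genes tested, 40 rose, with a median log2 fold change of 1.20 (2.30-fold), and 29 changed by more than 1 on the log2 scale, against a median of -0.05 over all genes tested. All 4 Treg libraries lay above all 4 Tn libraries for 41 of the 46 genes and below them for 1, compared with 37.2% and 35.7% of all genes.

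**Figure D1:**
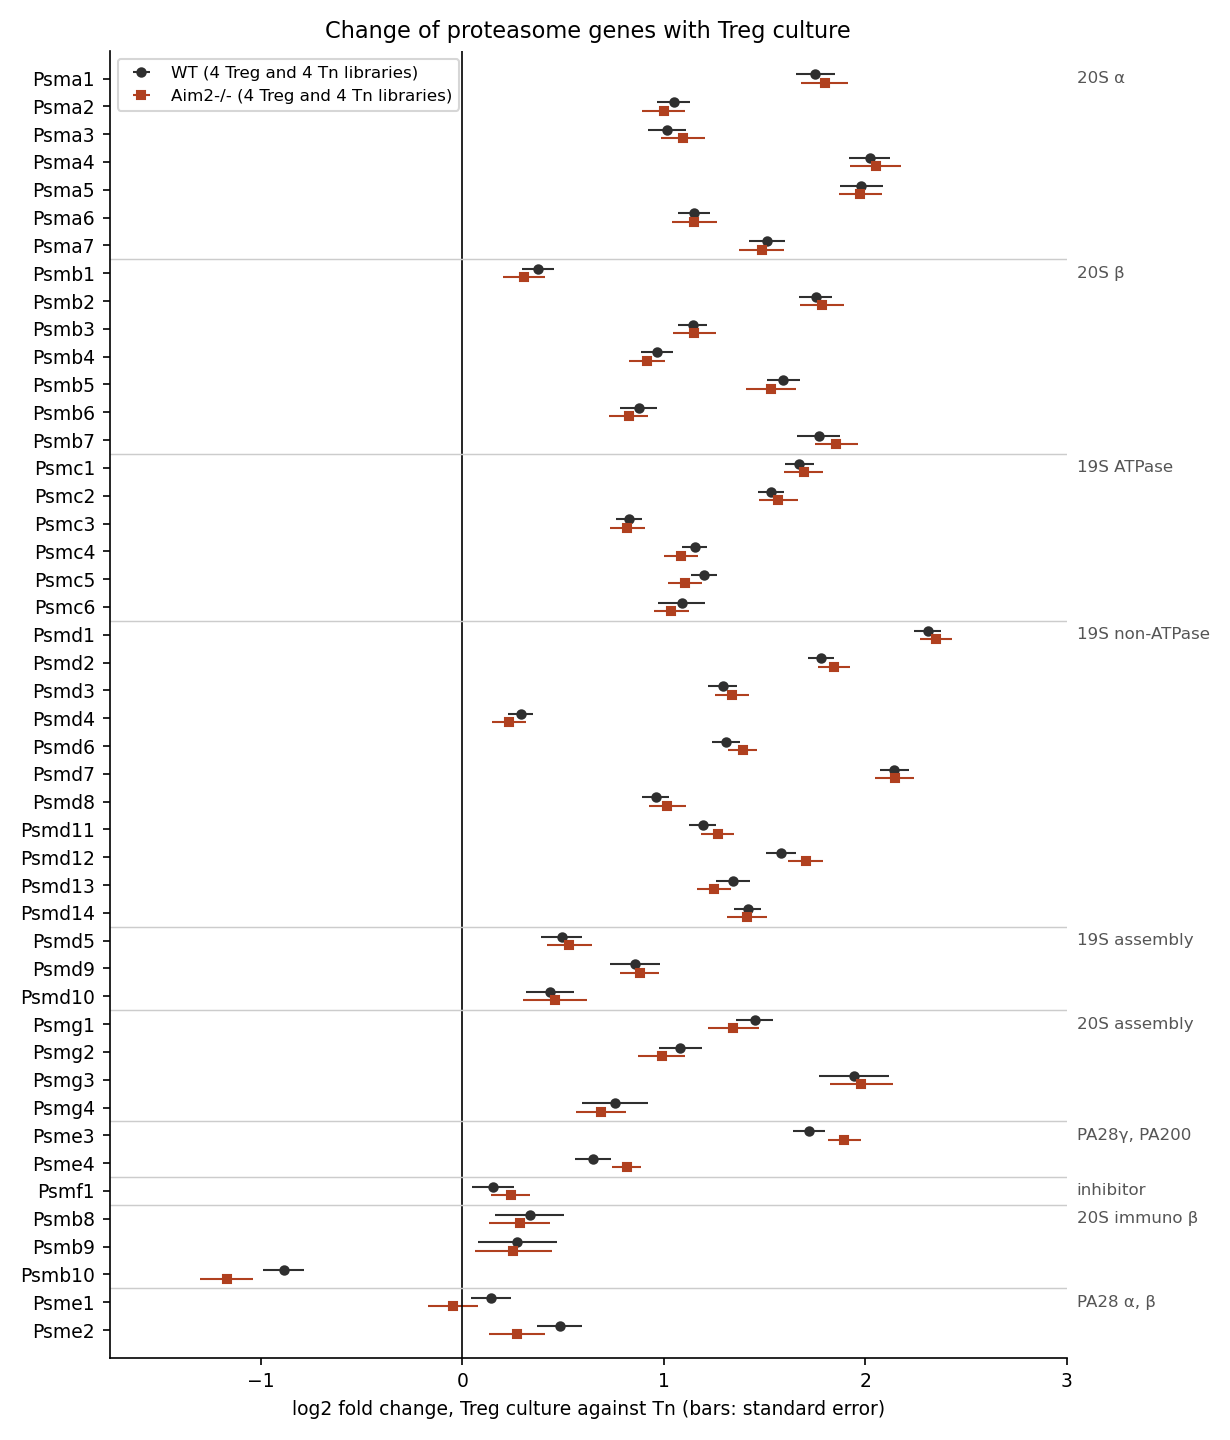
Log2 fold change (x axis) of each of the 46 proteasome genes tested (y axis, grouped by role), Treg culture against Tn, in WT (circles) and Aim2-/- cells (squares), with bars of 1 standard error and n = 4 libraries a group. The α, β, ATPase and non-ATPase subunits lie to the right of 0 and Psmd1 farthest, while Psmb10 is the lone gene well to the left.

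All 7 tested α subunits of the 20S core, which gate the entrance to the barrel, rose with culture in WT, with log2 fold changes between 1.02 and 2.02 and a median of 1.51. Psma4 rose the most of them (4.07-fold, log2 2.02 ± 0.10 SE, edgeR adjusted p = 8.6e-08), from 71.7 ± 6.08 CPM in WT Tn to 298 ± 36.8 CPM in WT Treg (SD, n = 4 each). Psma5 rose 3.95-fold and Psma1 3.37-fold, while Psma3 rose 2.02-fold, the smallest rise among the α subunits tested. Counts of Psma3, Psma4 and Psma5 were not whole numbers in any library, so their reads were shared with similar copies and their levels carry that uncertainty. Psma8, the testis form of an α subunit, was at 0 to 1 counts a library in Tn and 0 to 13 in Treg, and was not tested.

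The 7 constitutive β subunits of the 20S core rose as well, by 0.38 to 1.77 on the log2 scale with a median of 1.14. Psmb7, which cuts after basic residues, had the largest rise of them. Its level was 72.8, 73.5, 58.4 and 56.1 CPM in the 4 WT Tn libraries and 226, 235, 213 and 236 CPM in the 4 WT Treg libraries, a 3.41-fold rise (log2 1.77 ± 0.11 SE, edgeR adjusted p = 2.4e-07). Psmb5, the chymotrypsin-like subunit, was at 49.6, 43.4, 55.5 and 51.4 CPM in WT Tn and at 151, 154, 150.4 and 161 CPM in WT Treg, a 3.02-fold rise (log2 1.59 ± 0.08 SE, adjusted p = 1.0e-07). Psmb6, the caspase-like subunit, went from 95.3, 93.5, 85.0 and 78.7 CPM to 159, 172, 147 and 183 CPM, a 1.83-fold rise (log2 0.88 ± 0.09 SE, adjusted p = 1.4e-05). For each of the 3 the lowest Treg library was far above the highest Tn library. Psmb4, a structural β subunit, was at 134, 128, 115 and 114 CPM in WT Tn and 241, 251, 228 and 260 CPM in WT Treg, again without overlap (1.95-fold). Psmb2 rose 3.37-fold and Psmb3 2.21-fold, while Psmb1, also structural, rose 1.30-fold (log2 0.38 ± 0.08 SE, adjusted p = 0.0017), the smallest rise of the ring. Counts of Psmb3 and Psmb5 were not whole in any library, nor were those of Psmb7 in 15 of the 16. Their levels, and the ratios to Psmb5 and Psmb7 given below, carry the same uncertainty. Psmb11, the thymic β subunit whose gene lies next to Psmb5 on chromosome 14, was at 4 to 15 counts a library in Tn and 0 to 4 in Treg and was not tested for culture.

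In the 19S cap all 6 ATPases rose with culture in WT, by 0.83 (Psmc3) to 1.67 (Psmc1) on the log2 scale, with a median of 1.18. All 11 non-ATPase subunits rose too, with a median of 1.34 and a wide range among them. Psmd1, a large scaffold subunit of the base, had the highest log2 fold change of all members: it was at 59.3, 56.5, 63.3 and 59.3 CPM in WT Tn and at 302, 319, 286 and 301 CPM in WT Treg. That was a 4.96-fold rise (log2 2.31 ± 0.07 SE, edgeR adjusted p = 3.2e-09), and the fold was larger than that of 91.3% of the genes tested. Psmd7, which pairs with the deubiquitinase Psmd14 in the lid, rose 4.42-fold from 60.4 ± 4.32 to 273 ± 8.97 CPM (SD, n = 4 each), and Psmd14 rose 2.67-fold. Psmd2, the other large base subunit, rose 3.43-fold. Counts of Psmc1, Psmd1 and Psmd2 were not whole in 16, 14 and 13 libraries, so reads shared with similar copies entered them too. Psmd3, a lid subunit, was at 102, 107, 116 and 113 CPM in WT Tn and 266, 280, 255 and 292 CPM in WT Treg, which did not overlap (2.45-fold). Psmd4, a receptor for ubiquitin chains, lay at the other end with a 1.22-fold rise (log2 0.29 ± 0.06 SE, adjusted p = 0.0016).

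Both sets of assembly helpers rose. The 4 chaperones of 20S assembly rose by 0.76 (Psmg4), 1.08 (Psmg2), 1.45 (Psmg1) and 1.95 (Psmg3) on the log2 scale in WT. The 3 chaperones of 19S base assembly rose by 0.44 (Psmd10), 0.49 (Psmd5) and 0.86 (Psmd9), which overlaps with the range of the 20S chaperones. When GC content and gene length were corrected, Psmd10 no longer passed the test (log2 0.20, adjusted p = 0.17). Psmf1, the inhibitor PI31, did not pass in WT (log2 0.15 ± 0.10 SE, adjusted p = 0.20).

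Among the activators outside the immunoproteasome, Psme3, which encodes nuclear PA28γ, was at 149.97, 144, 129 and 122 CPM in WT Tn and at 456, 456, 458 and 471 CPM in WT Treg. It rose 3.30-fold (log2 1.72 ± 0.08 SE, edgeR adjusted p = 4.4e-08). Psme4, which encodes the activator PA200, was at 56.5, 54.8, 69.9 and 62.1 CPM in WT Tn and 95.5, 93.96, 105 and 96.0 CPM in WT Treg, a 1.57-fold rise without overlap (log2 0.65 ± 0.09 SE, adjusted p = 8.2e-05).

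The 5 immunoproteasome genes had another pattern: with culture in WT, Psmb10 fell, Psme2 rose and the other 3 did not pass the test. Psmb10, the inducible counterpart of Psmb7, was at 102, 103, 122 and 113 CPM in WT Tn and at 62.8, 66.6, 50.3 and 63.9 CPM in WT Treg. All 4 Treg libraries were below all Tn libraries (log2 -0.89 ± 0.10 SE, 1.85-fold lower, edgeR adjusted p = 2.7e-05). Psme2, the β subunit of PA28, was at 195, 206, 217 and 221 CPM in WT Tn and 273, 319, 249.5 and 359 CPM in WT Treg, with a log2 fold change of 0.48 ± 0.11 SE (1.40-fold, adjusted p = 0.0026). Its counts were not whole in any library, and Psme2b, a similar gene, lay in the tables beside it.

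Psmb8, the inducible counterpart of Psmb5, was at 212, 201, 289 and 282 CPM in WT Tn and at 296, 340, 239 and 395 CPM in WT Treg. The groups overlapped, with replicate 3 the lowest of the Treg libraries (log2 0.34 ± 0.17 SE, edgeR adjusted p = 0.099). Without that library Psmb8 passed (log2 0.50, adjusted p = 0.02), as did Psme1 (log2 0.26, adjusted p = 0.026). Psmb9, the counterpart of Psmb6, was at 101, 95.1, 136 and 132 CPM in WT Tn and 117, 149, 110.2 and 198 CPM in WT Treg, again overlapping (log2 0.27 ± 0.20 SE, adjusted p = 0.22). Psme1, the α subunit of PA28, was at 262, 278, 289.5 and 299.6 CPM in WT Tn and 304, 329, 267 and 376 CPM in WT Treg (log2 0.14 ± 0.10 SE, adjusted p = 0.22). In WT Treg, replicate 3 was the lowest and replicate 4 the highest for Psmb8, Psme1 and Psme2, and for Psmb9 also, while in WT Tn replicates 3 and 4 were above replicates 1 and 2 for Psmb8 and Psmb9. Psmb8 and Psmb9 are neighbours on chromosome 17, their gene bodies 9957 bp apart on opposite strands, and Psme1 and Psme2 lie 5912 bp apart on chromosome 14. Counts of Psmb8 and Psmb9 were not whole in any library either.

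**Figure D2:**
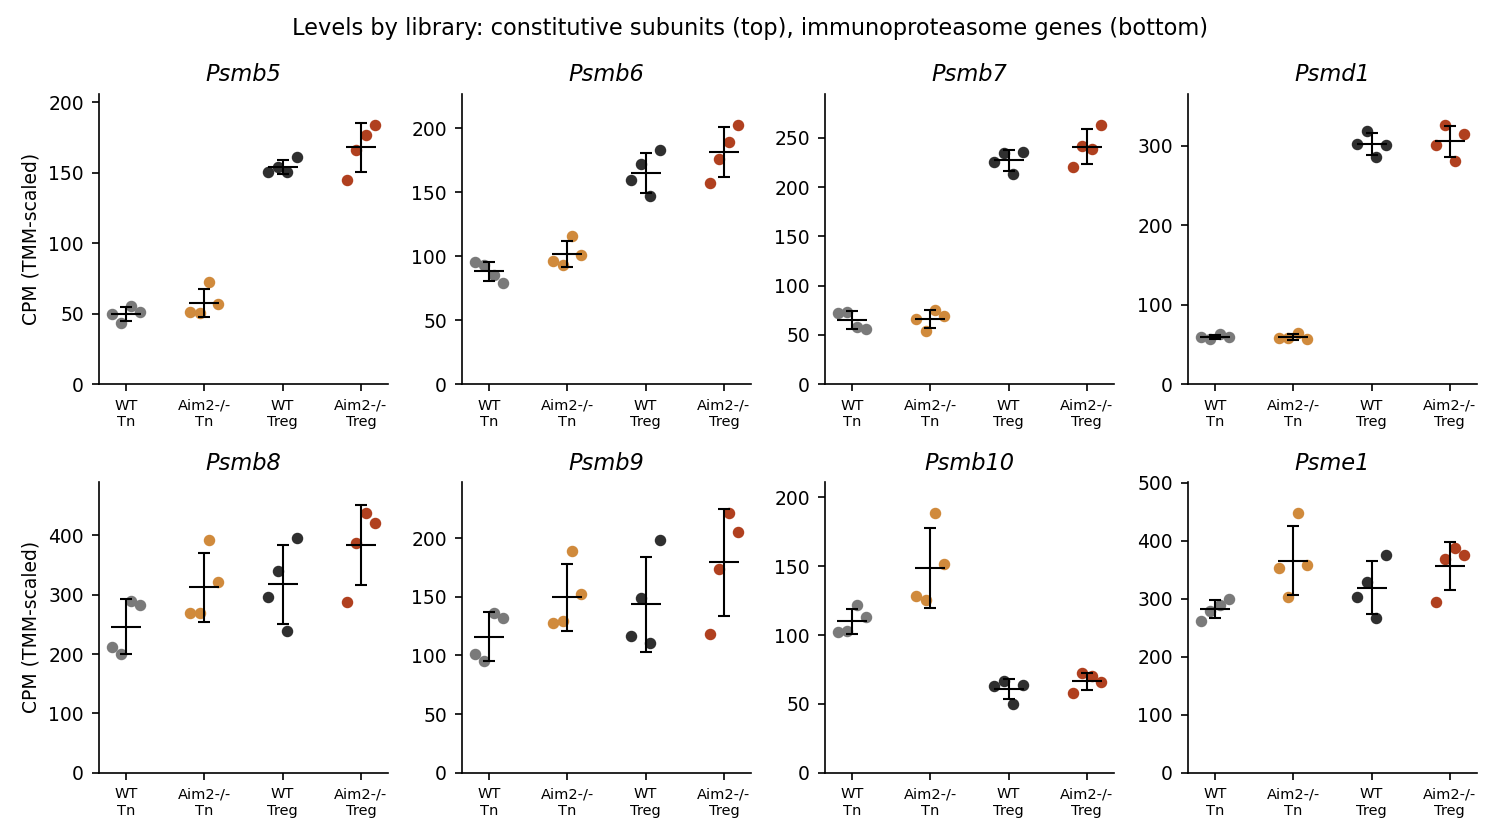
TMM-scaled CPM (y axis, from 0) in each library of the 4 groups (x axis), with the mean and SD as bars and n = 4 a group. The upper row holds constitutive subunits (Psmb5, Psmb6, Psmb7 and Psmd1), which lie higher in both Treg groups, and the lower row holds immunoproteasome genes, of which Psmb8, Psmb9 and Psme1 overlap between Tn and Treg and Psmb10 lies lower in Treg.

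Since both members of a catalytic pair were read in the same library, their ratio does not depend on the scaling of that library. The log2 ratio of Psmb8 to Psmb5 was 2.10, 2.21, 2.38 and 2.46 in WT Tn and 0.97, 1.14, 0.67 and 1.29 in WT Treg, and the groups did not overlap. The ratio was 2.41-fold lower after culture (exact permutation test, two-sided, p = 0.029, which is the smallest p that 4 libraries against 4 allow, adjusted p = 0.069 over 12 tests of ratios). The log2 ratio of Psmb10 to Psmb7 was 0.49, 0.49, 1.06 and 1.01 in WT Tn and -1.84, -1.82, -2.08 and -1.88 in WT Treg, a 6.36-fold lower ratio (exact permutation p = 0.029, adjusted p = 0.069). Here too the groups stood well apart. The log2 ratio of Psmb9 to Psmb6 was 0.09, 0.02, 0.68 and 0.74 in WT Tn and -0.45, -0.21, -0.41 and 0.11 in WT Treg, which overlapped (exact permutation p = 0.086, adjusted p = 0.15). None of the 12 tests of ratios passed 0.05 after adjustment. With 0.029 as the smallest p, a ratio could pass only if most of the 12 tests reached it. The adjusted values therefore cannot grade the ratios that did not overlap.

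Per kilobase of the main transcript, which allows levels of different genes to be compared, the CPM of Psmb8 was 2.71 ± 0.306 times that of Psmb5 in WT Tn and 1.13 ± 0.202 times in WT Treg (SD, n = 4 each). The corresponding ratio of Psmb10 to Psmb7 was 1.53 ± 0.331 in WT Tn and 0.237 ± 0.0191 in WT Treg, so that the constitutive gene was the lower of the pair before culture and the higher after it. Psmb9 was already below Psmb6 in WT Tn, at 0.790 ± 0.205, and was at 0.506 ± 0.0952 in WT Treg.

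**Figure D3:**
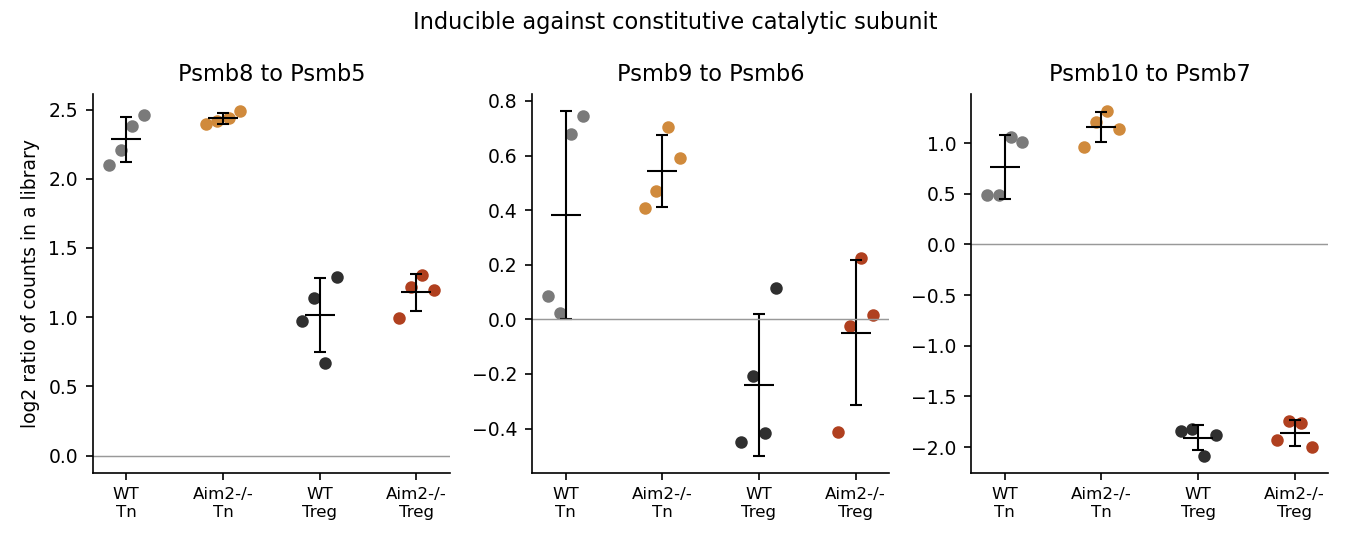
Log2 ratio (y axis) of the counts of an inducible catalytic subunit to those of its constitutive counterpart in each library of the 4 groups (x axis), with mean and SD as bars and n = 4 a group. The ratios of Psmb8 to Psmb5 and of Psmb10 to Psmb7 are lower in every Treg library than in any Tn library, while those of Psmb9 to Psmb6 overlap in WT.

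The order of levels per kilobase also differed between Tn and Treg. In WT Tn the highest CPM per kilobase among the 48 genes belonged to Psme1 (254 ± 14.4), Psme2 (218 ± 12.2) and Psmb8 (151 ± 28.4) (SD, n = 4 each), all immunoproteasome genes, and Psmb3 (115 ± 7.44) and Psmb6 (110 ± 9.68) followed. In WT Treg, Psme2 (312 ± 50.6), Psme1 (287 ± 41.0), Psma7 (279 ± 33.3 by its main transcript of 914 bases), Psmb3 (260 ± 12.7) and Psma4 (256 ± 31.6) led, and from Psme2 down to Psma4 each differed from the next by less than 1 SD of the higher. All exons of Psma7 together span 1180 bases, by which its level would be lower and its place in this order would change. At the lower end, among the tested genes, stood Psmd9 (8.04 ± 1.34 in WT Tn, 14.9 ± 0.987 in WT Treg), Psmd5 (9.27 ± 1.18 and 13.3 ± 0.875) and Psme4 (9.37 ± 1.05 and 15.03 ± 0.760), 2 chaperones of the 19S base and PA200. Psmg3 stood beside Psme4 at 9.37 ± 2.40 in WT Tn and at 36.9 ± 3.13 in WT Treg.

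The 17 structural genes of the 19S cap were closer to each other in level after culture. The SD of log2 CPM per kilobase among them was 0.632 to 0.657 in the WT Tn libraries and 0.443 to 0.488 in the WT Treg libraries. For the 14 constitutive genes of the 20S core it was 0.564 to 0.611 and 0.528 to 0.577, which overlapped. Summed over these 14 genes, the level was 1199 ± 65.6 CPM in WT Tn and 2986 ± 201 CPM in WT Treg, and over the 17 genes of the cap 1475 ± 34.5 and 3873 ± 111 CPM (SD, n = 4 each). The 3 inducible β genes summed to 472 ± 75.9 CPM in WT Tn and 522 ± 110 CPM in WT Treg.

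Aim2-/- cells went through the same comparison with 8 libraries of their own. Of 46 proteasome genes tested, 41 rose and 1 (Psmb10) fell, while 39.1% of the 13713 genes tested rose and 40.2% fell. All 41 tested genes outside the immunoproteasome rose, with a median log2 fold change of 1.25 (2.38-fold), beside -0.04 over all genes tested. Treg libraries lay above Tn libraries without overlap for 37 genes and below for 1 (37.3% and 37.5% of all genes). Psmb1, Psmd4, Psmd10 and Psmf1 rose although their libraries overlapped, with log2 fold changes of 0.31, 0.23, 0.46 and 0.24 and edgeR adjusted p of 0.019, 0.024, 0.019 and 0.038. Without Aim2-/- Tn replicate 2 none of these 4 passed (adjusted p = 0.11, 0.15, 0.1 and 0.23), Psmb1, Psmd4 and Psmd10 also failed without Aim2-/- Tn replicate 1 or 4, and Psmf1 failed without Aim2-/- Tn replicate 3 or 4 or Aim2-/- Treg replicate 2. Psmd1 again had the highest fold: it was at 57.9, 58.2, 64.4 and 57.1 CPM in Aim2-/- Tn and at 300.2, 326, 281 and 314 CPM in Aim2-/- Treg (5.10-fold, log2 2.35 ± 0.08 SE, adjusted p = 4.7e-10).

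Psmb5, Psmb6 and Psmb7 rose in Aim2-/- cells by 1.53 ± 0.12, 0.83 ± 0.10 and 1.86 ± 0.11 on the log2 scale (SE, n = 4 a group). Their levels were 50.5 to 72.3, 93.2 to 116 and 54.0 to 75.5 CPM in Aim2-/- Tn and 145 to 184, 157 to 203 and 221 to 263 CPM in Aim2-/- Treg. Psmb10 was at 129, 125, 189 and 152 CPM in Aim2-/- Tn and at 58.0, 72.2, 70.2 and 65.7 CPM in Aim2-/- Treg, with no overlap (2.25-fold lower, log2 -1.17 ± 0.13 SE, edgeR adjusted p = 6.4e-06). The other 4 immunoproteasome genes did not pass, with log2 fold changes of 0.29 ± 0.15 for Psmb8, 0.25 ± 0.19 for Psmb9, -0.05 ± 0.12 for Psme1 and 0.27 ± 0.14 for Psme2 (SE) and adjusted p of 0.1, 0.24, 0.74 and 0.092. Aim2-/- Treg replicate 1 was the lowest library of its group for all 4, and without it Psmb8, Psmb9 and Psme2 passed (log2 0.44, 0.45 and 0.43, adjusted p = 0.0084, 0.012 and 0.0053). Psmb8 also passed without Aim2-/- Tn replicate 3 (adjusted p = 0.039). The ratios of Psmb8 to Psmb5, Psmb9 to Psmb6 and Psmb10 to Psmb7 were 2.39-fold, 1.51-fold and 8.10-fold lower after culture (exact permutation p = 0.029 each, the smallest possible, adjusted p = 0.069).

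WT and Aim2-/- cultures share no library, so their folds can be set side by side. Of the 46 genes tested in both, 45 had the same sign and 40 rose in both. The log2 fold changes differed between genotypes by a median of 0.05 and by at most 0.28 (Psmb10), with a Pearson r of 0.99 across genes, which are not independent replicates. Tested directly by the interaction term over all 16 libraries, 0 of 47 proteasome genes passed with edgeR, with DESeq2 or with limma-voom, while none reached an unadjusted p of 0.05 (0 of 47). Over all 14669 genes, 0.0205% passed, and 3.49% were under 0.05 before adjustment. The smallest unadjusted p values were 0.099 for Psmb10 (the log2 fold change with culture was lower by 0.31 ± 0.17 SE in Aim2-/- cells), 0.17 for Psme3 (higher by 0.15 ± 0.11) and 0.2 for Psme4 (higher by 0.15 ± 0.11).

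Between genotypes no proteasome gene passed the test, in either cell state. In Tn, 0 of 47 genes passed with edgeR, with DESeq2 or with limma-voom, while 0.231% of the 13441 genes tested passed with edgeR, and the smallest adjusted p among proteasome genes was 0.28. An unadjusted p under 0.05 was reached by 6 of the 47 (12.8%), near the 10.3% of all genes tested, and they were the 5 immunoproteasome genes and Psmg4. The 5 immunoproteasome genes were read in the same libraries and are not independent results. In edgeR's fit across all genes, the log2 fold changes of these 5 in Tn, Aim2-/- against WT, were 0.42 ± 0.11 for Psme2 (adjusted p = 0.28), 0.44 ± 0.13 for Psmb10 (adjusted p = 0.37), 0.38 ± 0.11 for Psme1 (adjusted p = 0.38), 0.37 ± 0.16 for Psmb9 (adjusted p = 0.46) and 0.35 ± 0.16 for Psmb8 (adjusted p = 0.48), with the SE after each value. Their median was 0.38, beside 0.11 for the 42 other proteasome genes and 0.01 for all genes tested.

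In single libraries, Psme1 was at 353, 304, 447 and 359 CPM in Aim2-/- Tn and Psme2 at 245, 251, 339 and 286 CPM. For both, every Aim2-/- Tn library lay above every WT Tn library, if narrowly for Psme1 (304 against 299.6 CPM), and the same held for Psmb10 and Psmg4. Psmg4, a chaperone of 20S assembly, was at 15.4, 14.3, 18.2 and 15.95 CPM in Aim2-/- Tn and 11.5, 13.6, 11.8 and 12.7 CPM in WT Tn (log2 0.37 ± 0.11 SE, unadjusted p = 0.0066). Such a separation, with Aim2-/- above, was found for 4 of 47 proteasome genes and 3.36% of all genes. Psmb8 was at 269, 269, 392 and 321 CPM in Aim2-/- Tn and Psmb9 at 127, 129, 189 and 152 CPM, and both overlapped with WT Tn. Replicate 3 was the highest Aim2-/- Tn library for all 6 genes, and without it the log2 fold changes of Psmb8 and Psmb9 were 0.23 and 0.24.

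Sums of cell type markers were set beside the immunoproteasome genes in Tn, where no proteasome gene passed the test between genotypes. The sum of 7 B cell markers was 6.42 to 8.01 CPM in WT Tn and 9.06 to 13.9 CPM in Aim2-/- Tn, with Ms4a1 at 0 in every library and Cd74 making up most of the sum, and 5 erythroid markers summed to 1.23 to 3.97 and 5.13 to 7.94 CPM. In WT Tn, the 7 Treg or activation markers summed to 111, 114, 52.2 and 56.9 CPM in replicates 1 to 4, where the inducible β genes summed to 415, 399, 547 and 528 CPM, and in Aim2-/- Tn to 116, 112, 106 and 101 CPM, where they summed to 525, 524, 769 and 625 CPM. The split of the marker sum in WT Tn lay in Ctla4, at 79.5, 80.0, 12.8 and 17.6 CPM in replicates 1 to 4. Foxp3, Il2ra, Ikzf2 and Mki67 went the other way, with Mki67 at 4.49, 5.14, 11.4 and 10.6 CPM. The 8 myeloid and dendritic markers overlapped (25.1 to 32.3 and 26.9 to 40.8 CPM), as did 3 NK cell markers (6.72 to 17.5 and 6.67 to 14.3 CPM) and 2 CD8 markers (8.94 to 12.2 and 9.23 to 11.6 CPM). The part of these cells in the values of the immunoproteasome genes was not tested.

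In Treg, 0 of 46 proteasome genes passed between genotypes with edgeR, DESeq2 or limma-voom, beside 0.219% of the 13221 genes tested, and 0 had an unadjusted p under 0.05, beside 2.31% of all genes. No gene had all Aim2-/- Treg libraries above all WT Treg libraries, compared with 1.29% of all genes. The fitted log2 fold change was above 0 for 45 of the 46 genes, beside 50.1% of all genes tested, but small, with a median of 0.08. These genes were read in the same libraries and are not independent replicates. Their share of all counts overlapped between genotypes (0.849% to 0.952% in WT Treg, 0.852% to 1.01% in Aim2-/- Treg). The immunoproteasome genes were at 0.32 ± 0.23 (Psmb9), 0.27 ± 0.17 (Psmb8), 0.18 ± 0.15 (Psme2), 0.16 ± 0.11 (Psme1) and 0.12 ± 0.10 (Psmb10) on the log2 scale (SE), with an edgeR adjusted p of 0.999 each. Leaving out single libraries moved them to 0.20 to 0.51 for Psmb9, 0.15 to 0.39 for Psmb8, 0.10 to 0.29 for Psme2, 0.08 to 0.25 for Psme1 and 0.04 to 0.18 for Psmb10. The lowest values came without WT Treg replicate 3, except for Psmb9 (without Aim2-/- Treg replicate 3), and the highest without WT Treg replicate 4 (Psmb8, Psmb9 and Psme1) or Aim2-/- Treg replicate 1 (Psme2 and Psmb10). The 3 smallest unadjusted p values in Treg were 0.072 for Psmb4 (243, 269, 279.7 and 278 CPM in Aim2-/- Treg), 0.13 for Psmb5 (145, 166, 177 and 184 CPM) and 0.14 for Psmd3 (263, 297, 306 and 316 CPM), all overlapping with WT Treg. Replicate 1 was the lowest Aim2-/- Treg library for each of the 3. The pair ratios did not separate the genotypes in either state (exact permutation p = 0.086 to 0.63 over the 6 tests).

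**Figure D4:**
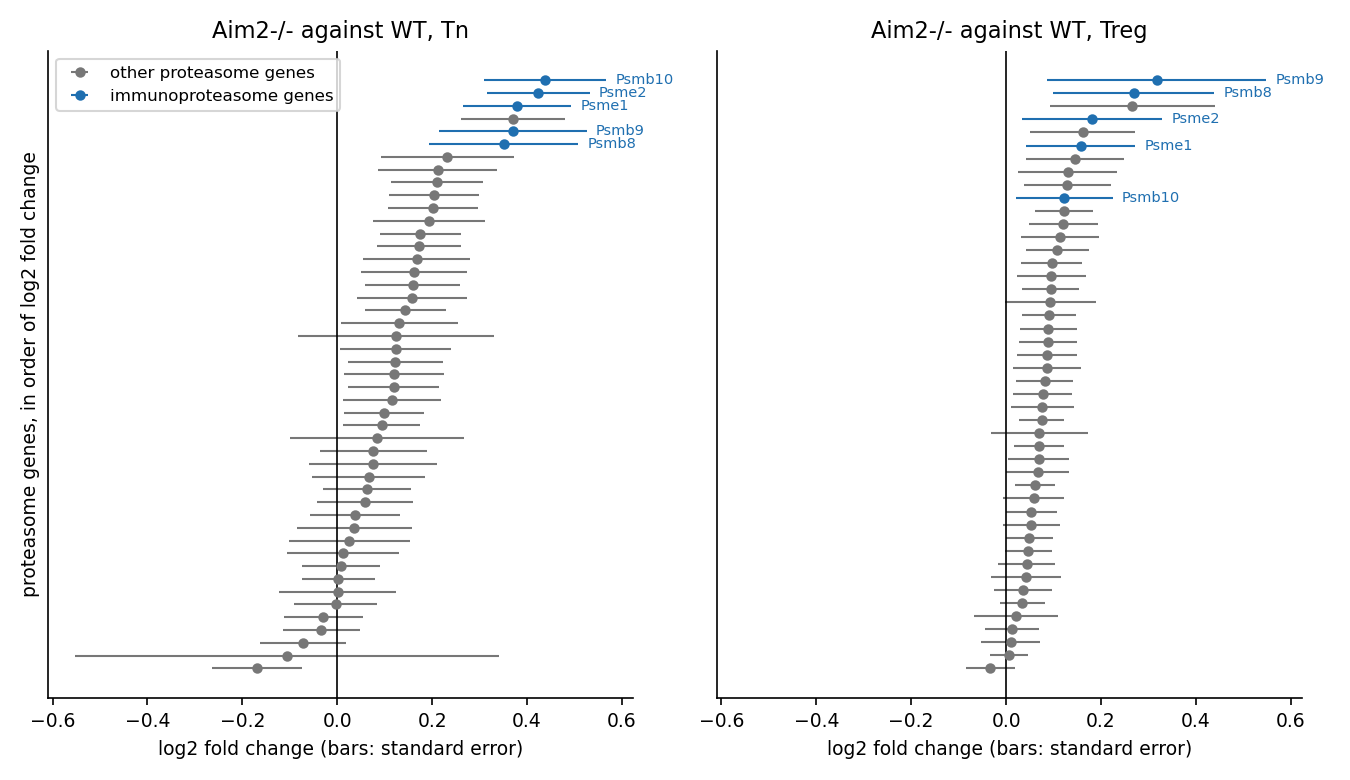
Log2 fold change (x axis) of each proteasome gene, Aim2-/- against WT, in Tn (left, 47 genes) and in Treg (right, 46 genes), each panel ordered by its own values (y axis), with bars of 1 standard error and n = 4 libraries a group. The immunoproteasome genes (blue, named) lie among the highest values in Tn, none passed the test, and in Treg nearly all genes lie slightly to the right of 0.

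Genes that work with the proteasome were also read. Of 27 tested partners and regulators (ubiquitin genes, ubiquitin receptors and shuttles, deubiquitinases, assembly factors and the regulators of proteasome transcription), 17 rose and 8 fell with culture in WT, and 19 rose and 8 fell in Aim2-/- cells, with medians of 0.54 and 0.57 on the log2 scale, while 37.7% of all genes tested rose and 39.2% fell in WT and 39.1% and 40.2% in Aim2-/- cells. In WT, Uba1, the ubiquitin-activating enzyme, rose 3.88-fold and Usp14, a deubiquitinase of the cap, 3.31-fold. Pomp, the maturation factor of the 20S core, rose 2.61-fold (log2 1.38 ± 0.08 SE, edgeR adjusted p = 1.9e-07), Adrm1, a ubiquitin receptor of the cap, 1.58-fold, and Nfe2l1, which encodes a transcription factor known to drive proteasome genes, 1.73-fold (log2 0.79 ± 0.13 SE, adjusted p = 0.00038). Nfe2l2, which encodes NRF2, was lower after culture (2.01-fold lower). In Tn, 4 of the 27 had an unadjusted p under 0.05 between genotypes, against 10.3% of all genes, and are named here after their values were seen: Sem1 (log2 0.34 ± 0.10 SE) and Pomp (0.24 ± 0.10) were at higher and Ddi2 (-0.28 ± 0.09) and Usp14 (-0.24 ± 0.10) at lower values in Aim2-/- cells. None passed after adjustment, in Tn or in Treg.

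Of 19 genes of interferon signalling and MHC class I peptide loading, 6 rose and 10 fell with culture in WT, and the same counts held in Aim2-/- cells, with medians of -0.49 and -0.62 on the log2 scale, beside the same shares of all genes (37.7% and 39.2% in WT, 39.1% and 40.2% in Aim2-/- cells). Irf1, an interferon-induced activator of immunoproteasome genes, fell 2.28-fold in WT (log2 -1.19 ± 0.33 SE, edgeR adjusted p = 0.0086), and Nlrc5, the transactivator of class I genes, fell 2.002-fold (adjusted p = 1.1e-05). Irf1 was at 681, 882, 364 and 477 CPM in WT Tn and 214, 304, 166 and 396 CPM in WT Treg. These groups overlapped, and replicates 1 and 2 were the highest in WT Tn. The largest changes were in Irf8, which rose from 8.21 to 12.7 CPM in WT Tn to 926 to 1738 CPM in WT Treg, and Canx, a chaperone of the endoplasmic reticulum (3.66-fold higher), and, falling, in the receptor genes Ifngr1 (5.96-fold) and Ifngr2 (5.17-fold). The WT Tn libraries of both stood apart in pairs: Ifngr1 was at 286, 298, 101 and 99.7 CPM against 26.8 to 38.5 CPM in WT Treg, and Ifngr2 at 236, 265, 61.7 and 68.1 CPM against 14.4 to 37.8 CPM, so that replicates 1 and 2 carried much of these folds. The median log2 fold change of the 19 between genotypes in Tn was 0.12. Of these, 4 had an unadjusted p under 0.05, against 10.3% of all genes. B2m, Erap1, Calr, Canx and Pdia3, also of class I presentation, were not among the 4. Those 4 are named here after their values were seen: Tapbp (log2 0.35 ± 0.09 SE), Tap2 (0.32 ± 0.09), Tapbpl (0.25 ± 0.10) and Tap1 (0.24 ± 0.09), all higher in Aim2-/- cells. None passed after adjustment (edgeR adjusted p = 0.28 to 0.43), and in Treg 0 of the 19 had an unadjusted p under 0.05, against 2.31% of all genes.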

How the data were processed

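mRNA of 16 libraries was analysed, 4 in each of the groups WT Tn, Aim2-/- Tn, WT Treg and Aim2-/- Treg, assigned from their titles. The authors made stranded libraries, mapped single-end reads to GRCm38 with STAR, quantified genes with RSEM (both tools and the build are also in the submitters' processing notes) and deposited 1 table of expected counts per library, neither normalized nor filtered. Their methods name 2 annotations, GENCODE m15 and Ensembl, and tool versions and the strand setting are not given in the sources used here. The proteasome genes and the other gene lists were chosen with earlier results of these data known.

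Expected counts were rounded to whole numbers, a gene entered a comparison when 4 or more of its libraries held 10 counts or more, and edgeR 4.0.16 (R 4.3.3) fitted TMM-scaled counts with its robust quasi-likelihood test in the 8 libraries compared, or in 16 for the interaction, with Benjamini-Hochberg adjustment over all genes tested at 0.05. The standard error is the log2 fold change divided by the root of F. Printed CPM use TMM factors over all 16 libraries, and CPM per kilobase divide by the length of 1 main transcript per gene. Ratios of catalytic pairs were compared by two-sided exact permutation over 70 arrangements with a pseudocount of 1. Every proteasome gene could be named by its role, and from each of 2 lists of related genes the 2 highest and 2 lowest folds with culture in WT and 3 preset genes, of which some are not reported here. Values in every library were given for the immunoproteasome genes, their constitutive counterparts, the highest and lowest fold with culture in WT and the 3 smallest p for each genotype comparison and the interaction. Alternatives were DESeq2 1.42.0, limma-voom (limma 3.58.1), other size factors, filters, an all-library fit, GC and length offsets, a replicate block and leaving out each library. The scripts were tested on simulated counts.

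Coordinates, lengths and GC content came from GENCODE M21 on GRCm38, which held 98.7% of the genes and all 48 members. Of the members, 19 had counts that were not whole in at least 1 library, so reads shared with similar copies entered them. Same-numbered libraries did not all pair: in each comparison some libraries of the same number deviated from their groups with a correlation under 0.1. Others deviated together between genotypes, with correlations of 0.22 and 0.35 in Tn (replicates 1 and 3) and 0.49, 0.30 and 0.42 in Treg (replicates 1, 2 and 4). With culture in WT, replicate 2 had a correlation of 0.15. The main tests used no pairing, and the replicate block was an alternative. Scale by total RNA could not be checked, since no spike-in is mentioned.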

Additional observations from a re-analysis of the deposited data

Results flagged for a closer look

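In 68 groups of 4 libraries tested, 3 held a library whose gap to the others was large relative to the range of the group. Chance gives about 1 in 20, which is close to the share found. Psmd1 was at 64.4 CPM in Aim2-/- Tn replicate 3, above the 57.1 to 58.2 CPM of the other 3 libraries. Psme3 was at 471 CPM in WT Treg replicate 4, above 456 to 458 CPM in the others. Psme4 was at 91.5 CPM in Aim2-/- Treg replicate 3, below 96.5 to 97.5 CPM in the others. All 3 gaps were small beside the change of the same gene with culture.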

How the results depend on the processing

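The numbers of proteasome genes that rose with culture, 41 in WT and 41 in Aim2-/-, stayed within 1.5 times under every alternative, at 41 to 43 and 37 to 44 when single libraries were left out. Without a filter on low counts, 2 genes were called lower with culture in WT and 2 in Aim2-/- instead of 1. The median log2 fold change with culture in Aim2-/- cells ranged from 1.02 to 1.20 when single libraries were left out, lowest without Aim2-/- Tn replicate 2. Psmb1 and Psmf1 in Aim2-/- cells and Psmd10 in both genotypes lost their calls when GC content and length were corrected, while Psmb8 in both genotypes and Psmb9 and Psme2 in Aim2-/- cells gained one. With a replicate block, 43 genes instead of 41 rose in Aim2-/- cells (Psmb8 at an adjusted p of 0.018 and Psme2 at 0.024 were added), 41 rose in WT, and 0 were called between genotypes. With GC offsets Psmb7 in Tn between genotypes was at -0.081 (-0.076 with the block) instead of 0.025 on the log2 scale, and at -0.049 to 0.10 when single libraries were left out. Psme1 with culture in Aim2-/- cells was at 0.043 (0.042 with the block) instead of -0.046, and at -0.17 to 0.078 without single libraries. The ratio of Psmb10 to Psmb7 between genotypes in Treg was 0.05 on the log2 scale and ranged from -0.012 (without WT Treg replicate 3) to 0.094. DESeq2 called 128 genes of all genes between genotypes in Tn, 52 in Treg and 10 for the interaction where edgeR called 31, 29 and 3, and a fit of all 16 libraries called 64 in Tn. Scaling by library totals alone, chosen after seeing the data, changed no call of a proteasome gene. The causes of these shifts were not tested. With 4 libraries a group, the design limits the tests of ratios to p of 0.029 or more.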
